A study of Mus musculus with 6 samples.

Results

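The 9 genes described here belong to the mitogen-activated protein kinase (MAPK) pathway and its feedback loop, and were followed through single tumor cells of a mouse melanoma model. They were chosen by symbol and known role, with earlier results of these data known, and not by a threshold on their values. Braf, Nras and Map2k1 are from the signalling core, and Dusp4, Dusp6, Spry2, Spry4, Spred1 and Etv5 from the genes that the pathway induces. These are 9 of the 25215 genes in the deposited table, and all 9 were among the 11264 genes that entered the tests. The host mice were C57BL/6 and received 50000 melanoma cells under the skin of the flank. The study's methods give injection on both flanks, and which flank the sequenced cells came from is not stated. The groups were B16 (the B16 line, untreated), B16PD1 (the same line in mice given 200 µg of antibody against the immune checkpoint receptor PD1 on days 5, 8 and 11) and R499 (untreated tumors of a line taken from a B16 tumor that relapsed after radiation and an antibody against CTLA4, another checkpoint receptor). Tumors were taken on day 15, cells without CD45 were sorted to leave out leukocytes, and full-length transcripts of single cells were sequenced. There were 2 tumors per condition, named here as in the table: B16007 and B16008, B16PD1000 and B16PD1002, R499015 and R499016. All tumors of a condition derive from 1 cell line, so R499 stands for a single relapsed line.

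In this pathway, growth factor receptors load RAS proteins with GTP through adaptors and exchange factors, and RAS activates RAF kinases, which phosphorylate the MEK kinases, which phosphorylate ERK. ERK then switches on transcription of its own brakes and of ETS family transcription factors. DUSP phosphatases remove phosphate from ERK, and Sprouty and SPRED proteins act near the receptor and RAS, so transcripts of these genes are commonly used as a readout of ERK output in melanoma. Transcript levels do not measure the phosphorylation or activity of the kinases themselves.

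Of 602 cells in the table, 507 were retained, with 75 to 91 in each tumor. Each cell's column name holds a pair of numbers, which was read here as a position, an assumption. The cells had 602 distinct pairs, and 0 pairs were shared between tumors. The median number of genes detected per cell ran from 3141 in R499015 to 3838.5 in B16PD1002. The melanocyte identity of the cells was checked with 7 lineage markers, which were detected in 65.1% to 100% of cells, with Tyrp1, Dct and Pmel in 100%. The immune marker found most often was Fcer1g, in 5.52% of cells, and Cd3d, Cd8a, Nkg7 and Ms4a1 were at 0. Ptprc, which encodes CD45, was detected in 1 cell. The fibroblast markers found most often were Pdgfrb and Acta2, each at 1.58% (Col1a1 and Pdgfra at 0), the endothelial one was Vwf at 2.56% (Cdh5, Kdr and Tek at 0), and all 4 keratinocyte markers were at 0. Values are TPM, a transcript abundance scaled for transcript length and for the total of each cell, and the level of a gene in a tumor is the mean of log2(TPM + 1) over its retained cells. Read depth is unknown for TPM, so a TPM of 0 says that a transcript was not detected, not that it was absent.

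The start-site windows of the members are shown because a shared regulatory motif is one feature that the choice of the 9 genes did not use. RefSeq windows of 250 bases before to 50 bases after the start (GRCm38.p6) were matched for 7 members, giving 8 windows, since Etv5 had 2 starts. Both strands were searched for the ETS motif CCGGAA, the AP-1 motif TGANTCA and the cyclic AMP response element (CRE) TGACGTCA, which do not overlap one another in these windows. CCGGAA is a longer form of the ETS core GGAA, and GGAA alone was not counted. It occurs in windows without a match, such as those of Spred1 and Dusp6. Of 32851 mouse windows of the same length, 14.9% held the ETS motif, 7.81% the AP-1 motif and 1.79% the CRE. Among the members, 3 windows held a match and are printed first, followed by Spred1 and the upstream start of Etv5, the members with the lowest p in the comparison of R499 with B16. Capitals mark the matches.
Braf: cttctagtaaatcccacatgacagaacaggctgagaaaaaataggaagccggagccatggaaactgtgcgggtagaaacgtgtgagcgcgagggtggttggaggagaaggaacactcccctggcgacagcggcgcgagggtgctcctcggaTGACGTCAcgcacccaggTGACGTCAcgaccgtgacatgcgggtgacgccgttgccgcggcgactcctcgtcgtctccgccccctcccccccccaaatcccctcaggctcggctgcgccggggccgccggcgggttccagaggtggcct
Map2k1: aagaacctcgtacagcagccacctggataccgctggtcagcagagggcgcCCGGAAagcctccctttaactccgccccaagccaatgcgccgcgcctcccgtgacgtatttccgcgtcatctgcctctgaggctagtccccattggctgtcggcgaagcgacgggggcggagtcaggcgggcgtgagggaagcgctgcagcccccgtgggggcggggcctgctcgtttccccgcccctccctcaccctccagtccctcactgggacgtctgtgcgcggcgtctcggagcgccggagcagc
Spry2: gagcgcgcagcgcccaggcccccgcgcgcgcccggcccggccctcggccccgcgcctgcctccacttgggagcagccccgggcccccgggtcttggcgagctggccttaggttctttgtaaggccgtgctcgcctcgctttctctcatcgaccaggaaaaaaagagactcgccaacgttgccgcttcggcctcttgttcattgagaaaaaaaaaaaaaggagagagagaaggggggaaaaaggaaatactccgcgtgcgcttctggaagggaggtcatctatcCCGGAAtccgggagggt
Spred1: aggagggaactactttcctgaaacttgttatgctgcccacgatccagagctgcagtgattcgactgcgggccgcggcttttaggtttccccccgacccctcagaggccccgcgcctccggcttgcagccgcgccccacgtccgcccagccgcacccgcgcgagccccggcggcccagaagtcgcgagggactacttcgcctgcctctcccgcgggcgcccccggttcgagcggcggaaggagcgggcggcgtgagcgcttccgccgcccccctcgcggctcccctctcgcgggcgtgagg
Etv5: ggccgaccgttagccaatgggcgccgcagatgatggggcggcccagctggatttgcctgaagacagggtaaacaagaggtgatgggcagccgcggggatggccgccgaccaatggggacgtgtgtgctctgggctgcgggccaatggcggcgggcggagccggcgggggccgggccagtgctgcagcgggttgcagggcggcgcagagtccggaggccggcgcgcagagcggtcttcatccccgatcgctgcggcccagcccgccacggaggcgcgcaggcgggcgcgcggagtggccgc
The Braf window (chr6:39725414-39725713, minus strand) held 2 CREs, at -99 and -81 bases from the start. The Map2k1 window (chr9:64253556-64253855, minus strand) held 1 ETS motif at -200, and the Spry2 window (chr14:105896770-105897069, minus strand) held 1 at 33 bases after the start. The Spred1 window (chr2:117120821-117121120, plus strand) and the Etv5 window (chr16:22439521-22439820, minus strand) held 0 matches, as did those of Nras and Dusp6. Among the feedback genes with a window, Spry2 alone had a match to any of the 3 motifs. Dusp4 and Spry4 had no matched window and were not searched.

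The 9 genes spanned a wide range of levels, and 3 of them stood well above the rest. Nras, a RAS protein, had the highest mean level over the 6 tumors, 5.25 ± 0.23 (SD, n = 6). Each SD here is over the tumors of all 3 conditions, so it includes differences between conditions. Dusp6, the cytoplasmic phosphatase of ERK, followed at 4.64 ± 0.50, and Map2k1, which encodes the kinase MEK1, at 4.53 ± 0.51. Dusp6 and Map2k1 did not differ beyond their spread, since Dusp6 was the higher in 4 of 6 tumors. Etv5, an ETS transcription factor induced by ERK, came next at 2.23 ± 0.48 and was below Map2k1 in 6 of 6 tumors. Spry2, a Sprouty inhibitor, averaged 1.54 ± 0.076. Dusp4, a nuclear phosphatase of MAP kinases, averaged 1.06 ± 0.15 and lay below Spry2 in 6 of 6 tumors. Braf, the RAF kinase that is often mutated in human melanoma, averaged 0.92 ± 0.16 and overlapped Dusp4, which was higher in 4 of 6. Spred1, which brings neurofibromin to RAS, averaged 0.65 ± 0.28, and Spry4, another Sprouty gene, 0.52 ± 0.23. These last 2 also overlapped, with Spred1 higher in 4 of 6 tumors. Nras lay above Dusp6, Etv5 above Spry2 and Braf above Spred1 in 5 of 6 tumors each.

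**Figure D1:**
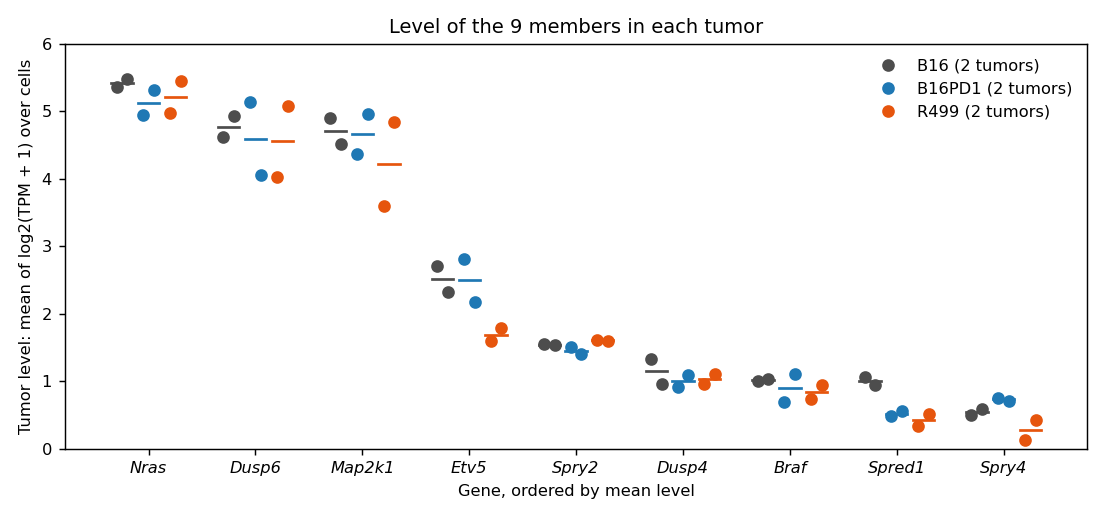
Tumor level (mean of log2(TPM + 1) over retained cells, vertical axis) of each of the 9 genes (horizontal axis), with 1 point per tumor, colour for the condition and a bar at the mean of 2 tumors. Nras, Dusp6 and Map2k1 lie between 3.59 and 5.48, the other genes between 0.13 and 2.81, and the R499 tumors lie lowest for Etv5 and Spry4.

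Relative to other genes of the same step, Nras and Map2k1 were the abundant forms and Braf was not. On the same per-length scale of mean log2(TPM + 1), Nras at 5.25 compared with 0.64 for Hras, another classical RAS gene. Of the RAF kinases, Araf was at 4.63 and Braf at 0.92. Map2k1 at 4.53 compared with 1.13 for Map2k2, which encodes MEK2. Mapk3, an ERK kinase, lay between these at 3.31. Among the feedback genes that were not members, the highest mean level was 0.67, for Errfi1, an inhibitor of EGF receptor family kinases, followed by 0.57 for Spry1.

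Detection in single cells followed a similar order. Nras was detected in 433 of 507 cells, a share of 85.4% (95% Wilson interval 82.1% to 88.2%, counting error only, as in all intervals on shares below). Map2k1 was detected in 76.3% and Dusp6 in 74.2%. Etv5 was found in 44.8% of cells, Spry2 in 32.3%, Braf in 32.0% and Dusp4 in 26.0%. Spred1 was found in 105 cells (20.7%) and Spry4 in 75 (14.8%). Where a gene was detected, its median was 74.2 TPM for Dusp6, 68.2 for Nras and 65.8 for Map2k1, against 33.4 for Etv5, 26.8 for Spry2, 16.8 for Dusp4, 10.7 for Spry4, 8.56 for Spred1 and 6.03 for Braf. Braf thus differed from Spry2 less in the share of cells than in the level per positive cell. Single cells could be far above these medians: the highest Nras value was 9535.54 TPM, in R499016, followed among the tumors' highest values by 6006.58 in B16008. The highest Spred1 value, 305.51 TPM, was in B16007, and the highest in any other tumor was 63.78.

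Detection of every member rose with the number of genes detected in a cell. Cells were divided at 2947.33 and 4235.67 genes into 3 classes of 169. Dusp4 was detected in 7.10% of the cells with fewest genes, 25.4% of the middle class and 45.6% of those with most. Spry2 went from 12.4% through 27.2% to 57.4%, and Spred1 from 8.28% through 20.1% to 33.7%. Etv5 had the smallest relative rise of the feedback genes, from 33.7% through 46.2% to 54.4%. The correlation of the level with the number of genes detected, over 507 cells that share libraries, was 0.13 for Etv5 and for Spry4 and between 0.19 and 0.37 for the other 7 genes. The share of cells with a low-level feedback gene therefore cannot be read apart from how many genes a cell yielded.

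**Figure D2:**
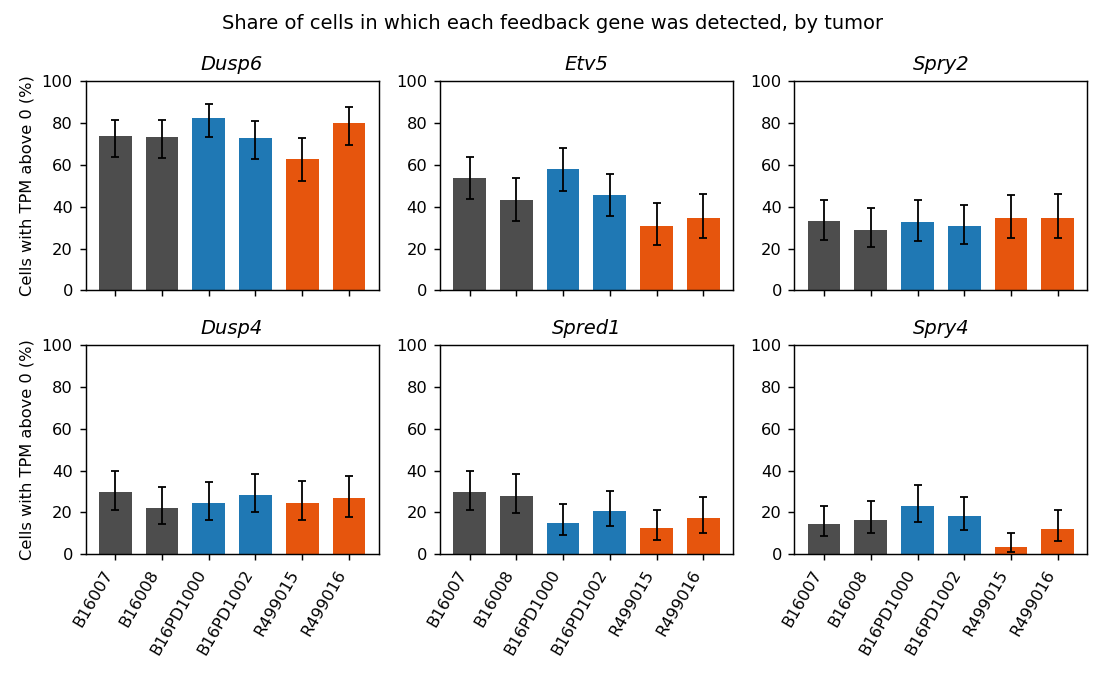
Percent of retained cells with TPM above 0 (vertical axis) for the 6 feedback genes in each tumor (horizontal axis, coloured by condition). Bars are shares with 95% Wilson intervals, and Spry4 reached 3.70% in R499015 against 23.3% in B16PD1000.

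Single cells held a mean of 2.13 of the 6 feedback genes. None of the 6 was detected in 63 cells, and all 6 were detected in 3. The share of cells with 3 or more was 48.4% in B16007 and 34.9% in B16008, 45.3% in B16PD1000 and 38.6% in B16PD1002, and 24.7% in R499015 and 36.0% in R499016. The lowest value was in the tumor with the fewest genes per cell (R499015, median 3141), and the part of that yield in the difference was not tested. B16008 and R499016 overlapped, so R499 was not separated from B16 by this measure.

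The comparison of B16PD1 with B16 asks how the genes stood after antibody treatment of the same line. None of the 9 members passed the test at an adjusted p of 0.05 (limma on tumor levels, Benjamini-Hochberg over 11264 genes), where 0% of all genes did. At an unadjusted p of 0.05, 1 of 9 members was called, against 4.69% of all genes, and it was called lower, against 1.67% of all genes. That member was Spred1. Its level was 1.06 in B16007 and 0.94 in B16008, against 0.48 in B16PD1000 and 0.55 in B16PD1002. Both treated tumors were below both untreated tumors. The difference was -0.48 on the log2 scale (SE 0.17, 95% interval -0.83 to -0.13, limma adjusted p = 0.989), and it was no longer past an unadjusted p of 0.05 without B16PD1000 (-0.45) or on the log2 of the mean TPM (-0.89). Spred1 was detected in 27 of 91 and 24 of 86 B16 cells, or 29.7% and 27.9%, and in 15.1% and 20.5% of the treated tumors' cells.

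Spry4 was the one member with a higher mean after treatment. Its level was 0.50 and 0.59 in the B16 tumors and 0.75 and 0.71 in the B16PD1 tumors, which did not overlap. The difference of 0.19 had a 95% interval of -0.12 to 0.50. Nras was 5.36 and 5.48 in B16 and 4.95 and 5.31 in B16PD1, also without overlap, with a difference of -0.29 (interval -1.0 to 0.42). Spry2 was 1.55 and 1.54 in B16 and 1.51 and 1.40 in B16PD1, a gap of -0.09 (interval -0.67 to 0.49). For Spry4, Nras and Spry2 the intervals included 0. The other 5 members overlapped between the conditions. Dusp6 showed the widest split within the treated pair, 5.15 in B16PD1000 and 4.05 in B16PD1002, on both sides of the B16 values of 4.62 and 4.93. Etv5 behaved alike, at 2.81 and 2.18 against 2.70 and 2.32. Over the 9 members, 8 differences were negative with a median of -0.12, beside a median of 0.01 and 47.0% negative over all genes tested. In all, 3 members were lower and 1 higher without overlap, where 15.4% and 17.9% of all genes were.

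The comparison of R499 with B16 asks how the relapsed line stood beside its parent. None of the 9 members passed the adjusted threshold, which 7 genes (0.0621%) passed. At an unadjusted p of 0.05, 2 of 9 were called, Spred1 and Etv5, against 10.5% of all genes. Both were lower in R499, where 8.12% of all genes were called lower. Etv5 was 2.70 in B16007 and 2.32 in B16008, and 1.59 in R499015 and 1.80 in R499016. The R499 tumors were the lowest of all 6. The difference was -0.82 (SE 0.32, 95% interval -1.50 to -0.13, limma adjusted p = 0.386). It was no longer past an unadjusted p of 0.05 without B16007 (-0.62), without R499015 (-0.72), on the log2 of the mean TPM (-0.31) or with the number of genes detected as a covariate (-0.40).

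The Etv5 values were also taken apart into the share of cells and the level of positive cells. Etv5 was detected in 53.8% and 43.0% of B16 cells, 58.1% and 45.5% of B16PD1 cells, and 30.9% and 34.7% of R499 cells. Where detected, its median was 36.3 and 43.5 TPM in the B16 tumors, 28.8 and 30.6 in the treated tumors, and 31.7 and 35.9 in R499. These last medians were thus below both B16 medians and above both B16PD1 medians. Within the middle class of genes detected, 23.1% and 34.8% of R499 cells had Etv5, against 44.8% to 63.0% in the other 4 tumors. Within the class with most genes the values were 40.0% and 40.9% against 48.6% to 71.9%. In the class with fewest genes the R499 values, 31.4% and 30.0%, lay among the others, which ran from 22.2% to 50%. Each class holds only part of a tumor's cells, so these shares rest on fewer cells than those of whole tumors.

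Spred1 stood at 0.34 in R499015 and 0.51 in R499016, against 1.06 and 0.94 in the B16 tumors. Both R499 tumors were below both B16 tumors. The difference was -0.58 (SE 0.17, interval -0.93 to -0.23, limma adjusted p = 0.269), and with genes detected as a covariate it was -0.44 and not past an unadjusted p of 0.05. This comparison shares its B16 tumors with that of B16PD1, so the low Spred1 values of B16PD1 and R499 against B16 are not independent of each other. Spry4 was 0.13 and 0.43 in R499, below 0.50 and 0.59 in B16, with an interval of -0.57 to 0.05 for the difference of -0.26. In R499015 3 of 81 cells had it, and in R499016 9 of 75. Braf was also lower without overlap, at 0.74 and 0.95 against 1.0 and 1.03, with a difference of -0.17 (interval -0.64 to 0.30). Spry2 was the one gene with a higher mean in R499, at 1.61 and 1.60 against 1.55 and 1.54, but the fitted interval of -0.52 to 0.64 was far wider than the 0.06 between the means.

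Map2k1 and Dusp6 differed more within R499 than between conditions. Map2k1 was 3.59 in R499015 and 4.84 in R499016, against 4.90 and 4.52 in B16. Dusp6 was 4.03 and 5.08 against 4.62 and 4.93. R499015 was the low tumor for both, and it also had the lowest median number of genes detected, 3141 against 3682 in R499016. With the number of genes detected as a covariate, the R499 minus B16 difference of Map2k1 moved from -0.49 to 0.14 (limma unadjusted p = 0.823). That of Dusp6 moved from -0.22 to 0.04 (limma unadjusted p = 0.952). The R499 tumors had the lowest mean number of genes detected, 3331.7 and 3456.2, against 3496.3 to 3786.7 in the other tumors. The covariate thus runs with the condition, and the part of that yield was not tested apart from it. Nras (4.98 and 5.45 against 5.36 and 5.48) and Dusp4 (0.96 and 1.11 against 1.33 and 0.97) overlapped as well. Over the 9 members, 8 differences were negative with a median of -0.22, beside a median of -0.07 and 64.1% negative over all genes. In all, 4 members were lower and 1 higher without overlap, where 30.1% and 11.6% of all genes were.

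**Figure D3:**
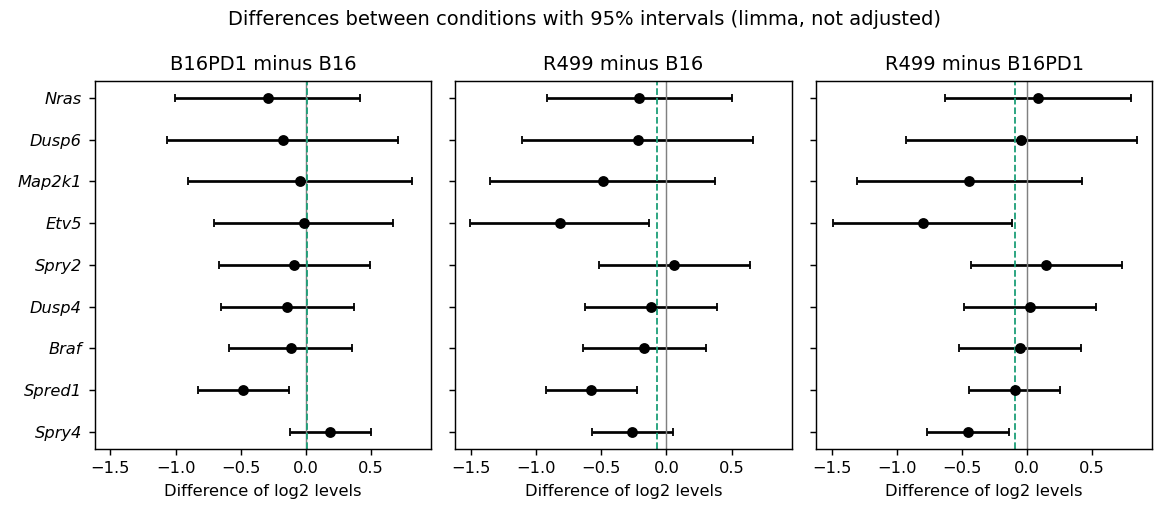
Differences of the 9 members' log2 levels (horizontal axis) with 95% intervals from limma, not adjusted, in the 3 comparisons. The dashed line is the median of all genes tested. Intervals leave out 0 for Spred1 in the left and middle panels, Etv5 in both R499 panels, and Spry4 in the rightmost panel.

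R499 and B16PD1 were compared directly as well. Again 0 of 9 members passed the adjusted threshold, which 8 genes (0.071%) passed. At an unadjusted p of 0.05, 2 were called, Etv5 and Spry4, against 10.2% of all genes, and both were lower in R499, where 8.64% of all genes were called lower. Spry4 was 0.13 and 0.43 in R499 and 0.75 and 0.71 in B16PD1, with no overlap and a difference of -0.45 (SE 0.15, 95% interval -0.76 to -0.14, limma adjusted p = 0.344). It was not past an unadjusted p of 0.05 without R499015 (-0.30), with genes detected as a covariate (-0.39), with each cell's mean subtracted (-0.32) or on the log2 of the mean TPM (-0.99). The share of cells with Spry4 was 3.70% and 12.0% in R499 and 23.3% and 18.2% in B16PD1. Etv5 was 1.59 and 1.80 against 2.81 and 2.18, a difference of -0.80 (SE 0.32, 95% interval -1.49 to -0.12, limma adjusted p = 0.425), and it was not past an unadjusted p of 0.05 under 6 alternatives. These were without B16PD1000 (-0.49), without R499015 (-0.70), with genes detected as a covariate (-0.14), on the log2 of the mean TPM (-0.29), with a pseudocount of 10 (-0.30) and with no filter on genes (-0.80). Spred1, at 0.34 and 0.51 against 0.48 and 0.55, overlapped. The Spry2 tumors of R499 were above those of B16PD1, 1.61 and 1.60 against 1.51 and 1.40, with an interval of -0.43 to 0.73. Over the 9 members, 6 differences were negative with a median of -0.05, beside -0.09 over all genes, of which 67.2% were negative. In all, 2 members were lower and 1 higher without overlap, where 31.3% and 10.2% of all genes were.

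The feedback genes are induced by one kinase pathway, so their levels were compared between cells. After tumor means and the linear effect of the number of genes detected were removed, the Pearson r of the 15 pairs over 507 cells ran from -0.05 to 0.17 with a median of 0.02. Of the 15 pairs, 2 had an r of at least 0.1. Spry4 and Etv5 had an r of 0.17, positive in 5 of 6 tumors, from -0.03 in R499015 to 0.28 in R499016. Dusp6 and Etv5 had an r of 0.12, positive in 5 of 6 tumors, from -0.06 in B16PD1000 to 0.21 in B16007. Without removal of the genes detected the median was 0.06, and 5 pairs reached 0.1. Dusp4 and Spry2 gave 0.18 before that removal and 0.09 after it, and Dusp6 with Spry2 gave 0.16 before and 0.07 after. In these sparse values weak correlations are a description only. Among the core genes, Nras and Map2k1 had an r of 0.12.

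**Figure D4:**
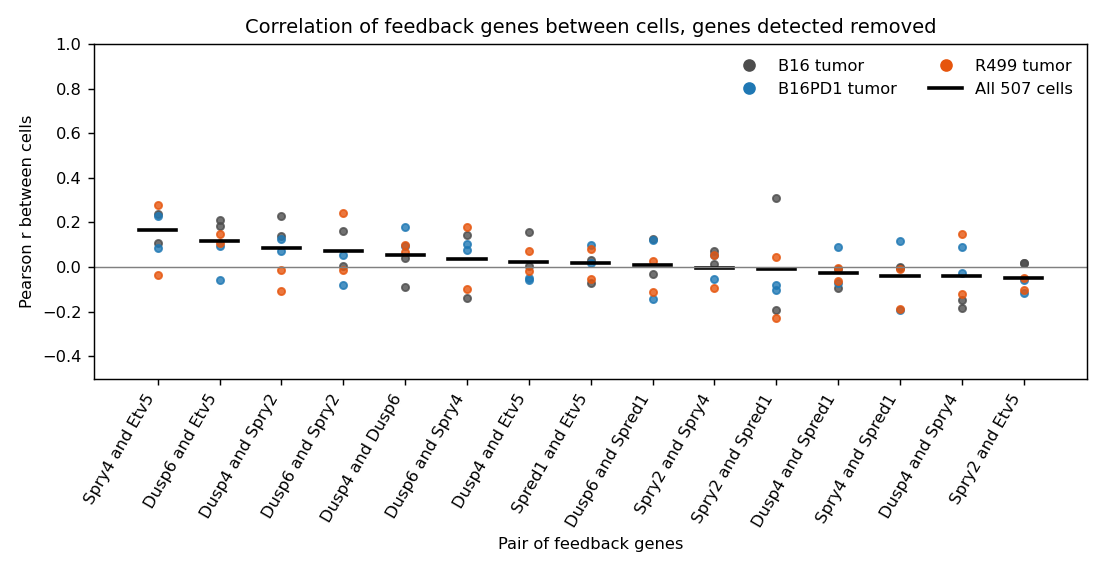
Pearson r between cells (vertical axis) for the 15 pairs of the 6 feedback genes, with points for tumors and a bar for all 507 cells. All bars lie between -0.05 and 0.17, and the most scattered pair, Spry2 and Spred1, runs from -0.23 to 0.31 between tumors.

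Co-detection was counted as well, without removal of tumor or of the genes detected, and all 15 pairs exceeded the count that independent detection would give. Spry4 and Etv5 were detected together in 48 cells, where 33.6 would follow from their separate shares if detection were independent, so 64.0% of the Spry4 cells also had Etv5. Dusp4 and Spry2 were found together in 68 cells against 42.7, the largest excess of the 15 pairs, in a pair whose detection rose strongly with the genes detected. Dusp4 with Spry4 gave 21 cells against 19.5, and Spry2 with Etv5 gave 80 against 73.4.

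No other gene tracked a member closely across cells. Among 8139 genes detected in at least 10% of cells, 0 had an r of 0.3 or more with any member. The highest r was 0.23, between Dusp6 and Sec23a, followed by 0.21 between Dusp4 and Snrnp70. The nearest genes of the others were Map2k1 with Chchd10 (0.20), Spry2 with Mylk (0.20), Etv5 with Acly (0.20), Spry4 with Morc3 (0.19), Spred1 with Fosl2 (0.19), Braf with Birc6 (0.18) and Nras with Ywhaq (0.18). None of these 9 was a member or a feedback gene.

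The rest of the pathway was followed in 8 lists holding 89 genes, of which 78 were tested. The lists, like the members, were chosen with earlier results of these data known. For B16PD1 against B16, 0 list genes passed the adjusted threshold, and at an unadjusted p of 0.05 1 was higher and 4 lower (6.41% of the tested list genes, against 4.69% of all genes). The 5 were Rasal2, a RAS GTPase activator, at 0.21, and Spred1 at -0.48, Jun at -0.52, Erbb3, a receptor of the EGF receptor family, at -0.32, and the ETS factor Ets2 at -0.31. For R499 against B16, 1 list gene passed the adjusted threshold, and 14 were lower and 0 higher at an unadjusted p of 0.05 (17.9%, against 10.5% of all genes called in either direction). For R499 against B16PD1, 0 passed the adjusted threshold, and 8 were lower and 0 higher (10.3%, near the 10.2% of all genes called in either direction).

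The list gene that passed was Nr4a1, a nuclear receptor gene of the immediate early response. Its level was 4.44 and 4.99 in the untreated B16 tumors, 4.10 and 4.0 in the treated ones, and 2.62 and 2.47 in the R499 tumors. Nr4a1 fell by 2.17 from B16 to R499 on the log2 scale (SE 0.34, limma adjusted p = 0.0157), and leaving out B16008, R499015 or R499016 ended the call, with adjusted p of 0.203, 0.18 and 0.101. Over all alternatives its adjusted p ran from 0.00516 to 0.502. Against B16PD1 the difference was -1.51 (adjusted p = 0.152). Dusp1, a stress-induced MAP kinase phosphatase, had a difference of -1.35 from B16 (adjusted p = 0.281) and -1.34 from B16PD1. Fos, an AP-1 subunit, differed by -0.99 and Myc by -0.94 between R499 and B16, with adjusted p of 0.368 and 0.38. Mapk9, a JNK kinase, differed by -0.75 between R499 and B16PD1 (adjusted p = 0.403).

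The R499 minus B16 differences were also counted by list, beside 8.12% of all genes called lower. Of 10 tested immediate early genes, 5 were lower at an unadjusted p of 0.05 and 0 higher, with a median difference of -0.60, beside -0.07 over all genes. Of 13 tested ERK target genes, the list that holds Etv5, 6 were lower and 0 higher, with a median of -0.32. These 6 were Ets2, Myc, Etv1, Etv5, Elk1 and Ccnd1, which encode transcription factors and a cyclin. The list also holds genes of proteins that ERK phosphorylates, among them Elk1, Rps6ka3 and Mknk2. It is thus not a list of induced transcripts alone. Phlda1 of the same list had a positive difference of 0.59. The feedback list is not the set of 6 feedback members used above. Its 10 tested genes leave out Etv5 and add Dusp5, Dusp7, Spry1, Spred2 and Errfi1 to the other feedback members. Of these 10, 1 was lower (Spred1) and 0 higher, and the median of -0.07 was that of all genes. Among the 6 feedback members, Spred1 and Etv5 were both called lower. The RAF, MEK and ERK list had 1 of 10 lower and 0 higher, with a median of -0.18. The JNK and p38 list had 1 of 9 lower (Map2k6) with a median of -0.21. The receptors, the adaptors with RAS, and the RAS GTPase activators had 0 of 9, 0 of 13 and 0 of 4 called, with medians of -0.13, 0.06 and 0.04. These lists were described by counts and medians, with no test of a list. They were chosen with earlier results of these data known, so the counts may not be independent of that choice. The most abundant receptors were Met (5.97), Mc1r (3.74) and Axl (0.41), while Egfr, Pdgfra and Ednrb were at 0. Shc1 (2.80) and Frs2 (1.19) led the adaptors, Nf1 (0.94), Rasa1 (0.93) and Rasa2 (0.84) the RAS GTPase activators, and Lamtor2 (8.21) and Lamtor3 (4.96), scaffold genes, the kinase list. Ier3 (4.72), Myc (4.65) and Phlda1 (4.05) led the targets, Fos (5.87), Atf3 (3.89) and Nr4a1 (3.77) the immediate early genes, and Map2k3 (3.13), Map2k4 (2.04) and Mapk9 (1.25) the JNK and p38 list.

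**Figure D5:**
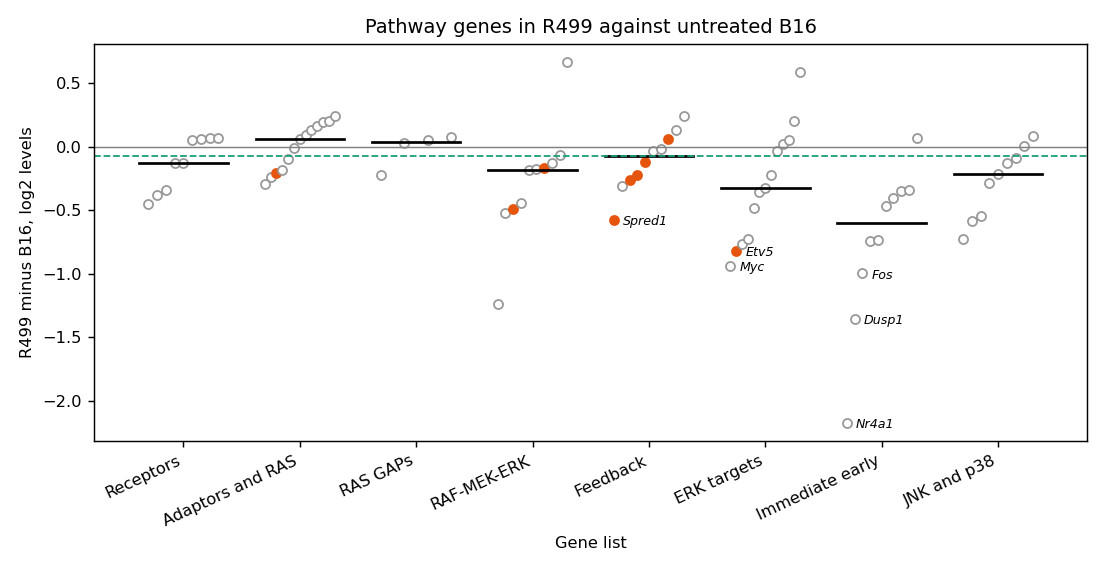
R499 minus B16 differences of log2 levels (vertical axis) for the tested genes of 8 pathway lists (horizontal axis). Each point is a gene, filled where it is one of the 9 members, bars are list medians and the dashed line is the median of all genes, -0.07. The immediate early list has the lowest median, -0.60.

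Marker levels of the cells stood beside these values as follows. The summed level of the 7 melanocyte markers was 64.1 to 64.8 in B16, 62.2 to 63.6 in B16PD1 and 63.6 to 64.2 in R499. The summed level of the 15 immune markers was 0.76 to 1.32 in B16, 0.99 to 1.64 in B16PD1 and 0.61 to 0.80 in R499. That of the 8 fibroblast markers was at most 0.63 and that of the 6 endothelial markers at most 0.22 in any tumor. The part of these sums in the members' differences was not tested. Among the melanocyte markers, Mitf differed by -0.73 and Tyrp1 by -0.54 between B16PD1 and B16, both at an unadjusted p under 0.05. Between R499 and B16, Pmel differed by 0.58 and Tyrp1 by -0.43 at that level, in opposite directions. Between R499 and B16PD1, Pmel differed by 0.78 and Fcer1g, an immune marker, by -0.32 at that level.

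The genes lie on separate chromosomes in the GENCODE M21 annotation of GRCm38: Braf on chromosome 6 (39603237 to 39725463, minus strand), Nras on chromosome 3 (103058285 to 103067914, plus), Map2k1 on chromosome 9 (64185770 to 64253631, minus), Dusp4 on chromosome 8 (34807297 to 34819894, plus), Dusp6 on chromosome 10 (99263231 to 99267489, plus), Spry2 on chromosome 14 (105891947 to 105896819, minus), Spry4 on chromosome 18 (38586247 to 38601415, minus), Spred1 on chromosome 2 (117121374 to 117182279, plus) and Etv5 on chromosome 16 (22381309 to 22439719, minus). Braf overlaps Ndufb2 on the other strand and the pseudogene Fth-ps2, and Map2k1 overlaps Uchl4, Gm48855 and Gm24106 on the other strand. Spry4 overlaps Gm27369 and Gm27804, small RNA genes on the other strand. Reads of overlapping genes may not be told apart, since no strand setting of the quantification is given in the sources used here.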

How the data were processed

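Single-cell expression was measured in 6 tumors (3 conditions, 2 tumors each) of 6 samples. Per the labels and the study's methods, the authors aligned reads with STAR to mm10, quantified with RSEM and deposited TPM per gene and cell, unfiltered and summing to about 1000000 in each cell, so read depth is unknown and counts could not be tested. Cells with more than 1000 genes and under 10% mitochondrial TPM were kept, and genes detected in more than 5 of them were tested. Doublets were not called. Fits used limma 3.58.1 (R 4.3.3, trend, two-sided, all 6 tumors, Benjamini-Hochberg) on the mean log2(TPM + 1) per tumor, a scale that understates changes of low genes. The tumor was the replicate. The p-values rest only on the spread between these tumors, after limma drew each gene's spread toward that of genes of similar level. The SE of a gene can therefore differ from the spread of its own tumors. The fit was tested on simulated data. Of 25215 gene identifiers, 25185 matched GENCODE M21. Named genes were the members, the 3 most abundant of each list, list genes past the threshold, up to 5 list genes per comparison with the largest non-overlapping difference at an unadjusted p of 0.05, and the nearest gene of each member. The members and lists were chosen with earlier results of these data known. Genes named beyond that rule (such as Errfi1, Etv1 and Map2k6) were named after their values were seen, to complete a count or a family. Some genes that the rule names are not reported here.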

Additional observations from a re-analysis of the deposited data

How the results depend on the processing

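No paired analysis was possible because the columns of the table carry tumor numbers and no replicate numbers, so the fit with a replicate block was not run. None of the 9 members passed the adjusted threshold under any of the 17 alternatives. Of 27 member differences, 10 kept their sign under all of them, among them those of Spred1 (B16PD1 and R499 against B16), Etv5 (R499 against both) and Spry4 (all 3 comparisons). The other 17 changed sign at least once, each with an interval that includes 0, and the cause was not tested. Rasal2 had no value among genes in at least 10% of cells.

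With a pseudocount of 0.1, the sign turned for Map2k1 (0.0381) and Etv5 (0.0814) in B16PD1 minus B16, and Nras (-3.21e-05) in R499 minus B16PD1. With a pseudocount of 10, it turned for Spry2 in R499 minus B16 (-0.0107) and Dusp6 in R499 minus B16PD1 (0.0712). With the log2 of the mean TPM, the sign changed for Nras (0.0542) and Spry2 (-0.12) in R499 minus B16, and Map2k1 (0.0229), Dusp4 (-0.0924) and Dusp6 (0.33) in R499 minus B16PD1. With no filter on cells, it changed for Map2k1 (0.0232) and Etv5 (0.21) in B16PD1 minus B16, and Nras (-0.027) and Dusp4 (-0.00434) in R499 minus B16PD1. With cells of more than 2000 genes, the sign turned for Etv5 in B16PD1 minus B16 (0.00423) and Dusp6 in R499 minus B16PD1 (0.0982). With the mean of each cell subtracted, it turned for Braf (0.083), Dusp6 (0.0921) and Spred1 (0.0403) in R499 minus B16PD1. With genes detected as a covariate, the sign changed for Map2k1 (0.14), Dusp4 (0.17) and Dusp6 (0.0402) in R499 minus B16, and Map2k1 (0.55), Dusp6 (0.37) and Spred1 (0.12) in R499 minus B16PD1. As the share of cells detected, in percentage points, it changed for Map2k1 (2.45), Dusp4 (0.53), Dusp6 (4.20), Spry2 (0.60) and Etv5 (3.36) in B16PD1 minus B16, and Nras (-2.83) and Dusp4 (-0.73) in R499 minus B16PD1.

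Leaving out 1 tumor leaves a condition with 1 tumor, which is assumed to vary like the others. On that basis B16PD1 minus B16 ranged from -0.32 to 0.0872 for Braf, -0.34 to 0.25 for Map2k1, -0.32 to 0.0431 for Dusp4, -0.72 to 0.37 for Dusp6 and -0.33 to 0.30 for Etv5. R499 minus B16 ranged from -0.44 to 0.0288 for Nras, -1.11 to 0.13 for Map2k1, -0.30 to 0.0653 for Dusp4 and -0.74 to 0.30 for Dusp6. R499 minus B16PD1 ranged from -0.26 to 0.15 for Braf, -0.15 to 0.32 for Nras, -1.07 to 0.18 for Map2k1, -0.0699 to 0.11 for Dusp4 and -0.59 to 0.50 for Dusp6.

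Genes past the threshold in B16PD1 minus B16 were 0, 13 with no filter on genes, and 0 to 2 with 1 tumor left out. In R499 minus B16 they were 7, 11 and 3 with pseudocounts of 0.1 and 10, 20 among genes in at least 10% of cells, 22 with no filter on cells, 20 in cells of more than 2000 genes, 28 with each cell's mean subtracted, 0 with the log2 of the mean TPM, the covariate, no trend or the share of cells, and 0 to 10 with 1 tumor left out (0 without B16008, 4 without R499015). In R499 minus B16PD1 they were 8, 13 and 3 with pseudocounts of 0.1 and 10, 14 with no filter on genes, among genes in at least 10% of cells or in cells of more than 2000 genes, 16 with no filter on cells, 22 with each cell's mean subtracted, 0 with the log2 of the mean TPM, the covariate, no trend or the share of cells, and 3 to 8 with 1 tumor left out (3 without B16PD1000 or R499015). The 1 list gene of R499 minus B16 (Nr4a1) became 0 with a pseudocount of 10, the log2 of the mean TPM, no filter on genes, the covariate, no trend or the share of cells, and 0 to 1 with 1 tumor left out.

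The median of all genes in R499 minus B16 and R499 minus B16PD1 was -0.13 and -0.17 with a pseudocount of 0.1, and 0.03 and 0.05 with each cell's mean subtracted. With a cut at 10 TPM the share of cells was 9.66% for Braf, 80.7% for Nras, 18.1% for Dusp4, 26.4% for Spry2, 7.69% for Spry4 and 9.27% for Spred1. In cells of more than 2000 genes it was 91.5% for Nras, 29.5% for Dusp4 and 35.0% for Spry2, and with no filter on cells 82.4% for Nras and 34.7% for Spry2. With 2 tumors per condition and an unknown read depth, the intervals given show which differences these data leave possible.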
